A study of Mus musculus with 9 samples.

Results

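The genes described here are 45 genes of G2 and mitosis: the transcription factors, kinases, spindle motors, kinetochore and condensin subunits with which a cell builds a spindle and separates its chromosomes. They were chosen by name and function, with earlier results of these data known. Each was read from the array row that names only that gene and has the highest mean over the 9 arrays. All 45 were found among the 19937 genes with such a row, and none was removed by a filter on low values. Each sample's RNA was hybridised to a whole-transcript mouse array from Affymetrix, and each of 3 groups has 3 arrays.

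All 9 samples carry the strain alleles OG2-GFP and Rosa26-M2rtTA. The fibroblasts came from TSKM-iPS mice, whose cells hold Tet1, Sox2, Klf4 and c-Myc under the control of doxycycline, and were collected at passage 4 in feeder medium without doxycycline. TSKM-3D cells are passage 4 cells of the same kind that were moved to ES medium with LIF and doxycycline for 3 days, so the agent and the medium changed together and cannot be told apart. The iPS cells, made with the same 4 factors, were at passages 10 to 15 in ES medium with LIF on mitomycin C-treated embryonic fibroblasts. Those feeders were removed by plating for 0.5 h before RNA was taken. The labels name neither the age of the mice nor separate cultures for the 3 arrays of a group, so the errors and p-values below cover array-to-array spread alone, part or all of which may be technical. The design allows the members to be compared before induction, early in induction and in the established line.

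The arrays were checked against their labels before the members were read. The third fibroblast array is titled, sourced and passaged as fibroblasts, but its cell type label names cells induced for 3 days. Across all genes the fibroblast arrays correlated with each other (Pearson) at 0.9978 to 0.9984, and with the TSKM-3D arrays at 0.9501 to 0.9548. The third array was kept as a fibroblast array. The 15 fibroblast markers summed to between 47891 and 48365 on the linear scale on fibroblast arrays, 31181 to 32150 on TSKM-3D arrays and 11768 to 13229 on iPS arrays. The 14 pluripotent cell markers summed to 593 to 610, 814 to 943 and 37405 to 37706. Of the introduced factors, Sox2 and Myc were above their fibroblast level in TSKM-3D (log2 differences 1.39 ± 0.09 and 1.60 ± 0.08). On the same arrays, which are labelled as induced, Klf4 differed by 0.04 ± 0.09 and Tet1 by -1.13 ± 0.07. Whether a factor's array row reads the introduced copy, the cell's own gene or both was not tested.

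As background, mitotic genes are transcribed late in the cell cycle and are kept low in resting cells. The DREAM complex, whose core is called MuvB, holds them down in quiescence, and the same core joined to B-MYB and then FOXM1 switches them on as cells move through S phase into G2. Their promoters often hold a cell cycle homology region, the site MuvB contacts, and CCAAT boxes bound by NF-Y. Fibroblasts divide with a long gap phase, whereas pluripotent cells divide fast with a short one. In RNA from a whole culture, fewer cycling cells and less RNA per cycling cell cannot be told apart.

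The promoters below are those of the members with the largest falls in TSKM-3D that hold a cell cycle homology region, and not every stretch shows both elements. Each stretch of 150 bases runs from position -120 to position 30 relative to the start site, 5′ to 3′ on the gene's own strand, and was read from RefSeq promoters of build GRCm38.p6. Capitals mark the homology region (TTTGAA or TTCGAA) and the CCAAT box, each on either strand, so that TTCAAA and ATTGG are the same elements on the other strand.
Ube2c, chr2:164769809-164769958, plus strand: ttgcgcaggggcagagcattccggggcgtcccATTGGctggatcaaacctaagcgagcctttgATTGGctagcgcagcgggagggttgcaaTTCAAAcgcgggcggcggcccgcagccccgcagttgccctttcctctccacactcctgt
Mki67, chr7:135716350-135716499, minus strand: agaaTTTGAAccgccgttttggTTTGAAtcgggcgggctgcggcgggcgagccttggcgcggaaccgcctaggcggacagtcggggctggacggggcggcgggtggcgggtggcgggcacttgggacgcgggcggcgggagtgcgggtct
Plk1, chr7:122159315-122159464, plus strand: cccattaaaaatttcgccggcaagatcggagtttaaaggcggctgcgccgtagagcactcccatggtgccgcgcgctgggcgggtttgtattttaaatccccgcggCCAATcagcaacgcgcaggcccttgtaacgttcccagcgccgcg
Ccnb2, chr9:70421525-70421674, minus strand: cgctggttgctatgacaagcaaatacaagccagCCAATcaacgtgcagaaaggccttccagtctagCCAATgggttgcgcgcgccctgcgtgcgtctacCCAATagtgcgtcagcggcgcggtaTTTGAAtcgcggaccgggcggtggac
Cdk1, chr10:69352883-69353032, minus strand: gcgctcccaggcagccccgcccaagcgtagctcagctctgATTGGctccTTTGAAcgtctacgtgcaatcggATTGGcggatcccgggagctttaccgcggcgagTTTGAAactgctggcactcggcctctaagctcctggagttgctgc
For contrast, these are the promoters of the members with the highest difference between TSKM-3D and fibroblasts among those with a promoter sequence.
Spc25, chr2:69206184-69206333, minus strand: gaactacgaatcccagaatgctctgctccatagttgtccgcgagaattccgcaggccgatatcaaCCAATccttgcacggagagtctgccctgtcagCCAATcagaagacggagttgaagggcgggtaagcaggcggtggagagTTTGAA
Bub1b, chr2:118598091-118598240, plus strand: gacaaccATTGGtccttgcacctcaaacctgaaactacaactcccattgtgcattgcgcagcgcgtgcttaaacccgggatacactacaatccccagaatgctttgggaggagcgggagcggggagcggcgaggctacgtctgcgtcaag
Ube2c and Ccnb2 hold CCAAT boxes upstream and a homology region near the start, and Spc25, which did not pass the test in TSKM-3D, has the same arrangement. In Plk1 and Bub1b the homology region nearest the start lies downstream of the stretch shown. Mki67 has homology regions at -116 to -111 and -98 to -93, and its CCAAT boxes lie upstream of the stretch shown.

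Most mitotic genes were lower in TSKM-3D than in fibroblasts, and nearly all were higher in iPS cells than in TSKM-3D. The median of the 45 members was 9.17, 9.24 and 9.20 on the log2 scale on the fibroblast arrays, 8.73, 8.47 and 8.74 on the TSKM-3D arrays, and 9.49, 9.49 and 9.50 on the iPS arrays. The 3 groups did not overlap in this median, and the iPS arrays stood highest. The median over all genes lay between 6.57 and 6.73 on every array.

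**Figure D1:**
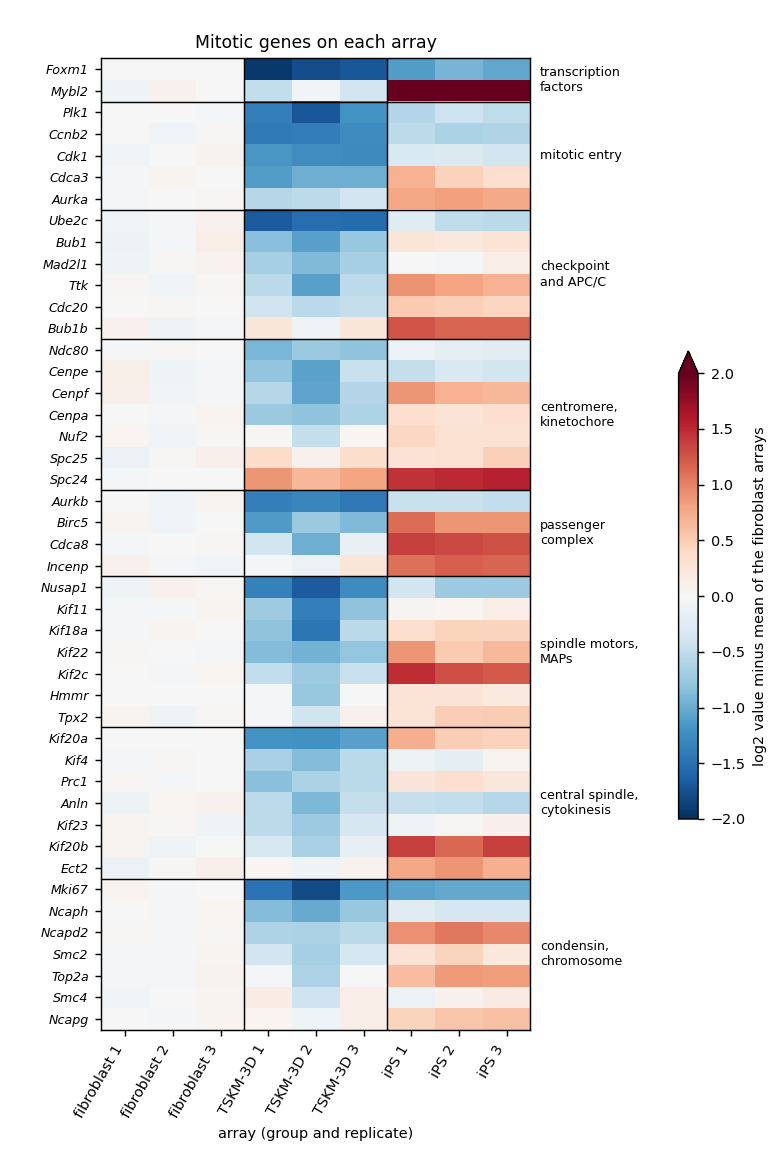
Each of the 45 mitotic genes (vertical, grouped by role) on each of the 9 arrays (horizontal), coloured by its log2 value minus the gene's mean on the fibroblast arrays, with blue lower and red higher; Mybl2 in iPS cells passes the end of the scale. Most rows are blue on the TSKM-3D arrays, deepest for Foxm1, and turn pale or red on the iPS arrays, while Spc24 is red in both.

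Differences between groups were tested with limma over all 19937 genes, with Benjamini-Hochberg adjustment, and are given as log2 differences ± SE with 3 arrays per group. A gene is called here at an adjusted p under 0.05 and a change of at least 2-fold. Between TSKM-3D and fibroblasts 10 of the 45 members were called lower (22.2%), against 7.58% of all genes, and 0 were called higher, against 3.25%. With the third fibroblast array placed among the TSKM-3D arrays, as its cell type label has it, 0 members were called in either direction. At an unadjusted p under 0.05 (limma) 34 members were lower, against 27.2% of all genes, and 2 higher, against 23.7%. At an adjusted p under 0.05 alone 33 members were lower (73.3%), against 25.3% of all genes, and 1 was higher, against 19.2%. The members' median difference was -0.69, in a range from -1.80 to 0.78, and that of all genes was 0.05.

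From TSKM-3D to iPS cells every member had a positive difference, from 0.09 to 3.18 with a median of 0.91, beside -0.01 for all genes. Of the 45 members 19 were called higher (42.2%), against 6.48% of all genes, and 0 lower, against 8.57%. At an unadjusted p under 0.05 (limma) 42 were higher, against 24.6% of all genes, and 0 lower, against 25.6%. At the adjusted p alone 42 were higher (93.3%), against 22.3%, and 0 were lower, against 23.2%. The 3 members that did not pass were Spc25, Anln and Smc4. With array medians set equal 15 of the 19 calls remained, and Bub1b, Cenpa, Incenp and Kif11 dropped under 2-fold.

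Against fibroblasts the iPS cells had members on both sides. In that comparison 7 members were called higher (15.6%), against 7.63% of all genes, and 2 lower (4.44%), against 13.8%. At the adjusted p alone 25 were higher (55.6%), against 25.5%, and 11 lower (24.4%), against 29.1%. The median difference was 0.34, beside 0.05 for all genes. It was 0.18 (all genes -0.12) with array medians set equal and 0.50 (all genes -0.08) after quantile normalization. The 3 comparisons share arrays, so their results are not independent of each other.

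**Figure D2:**
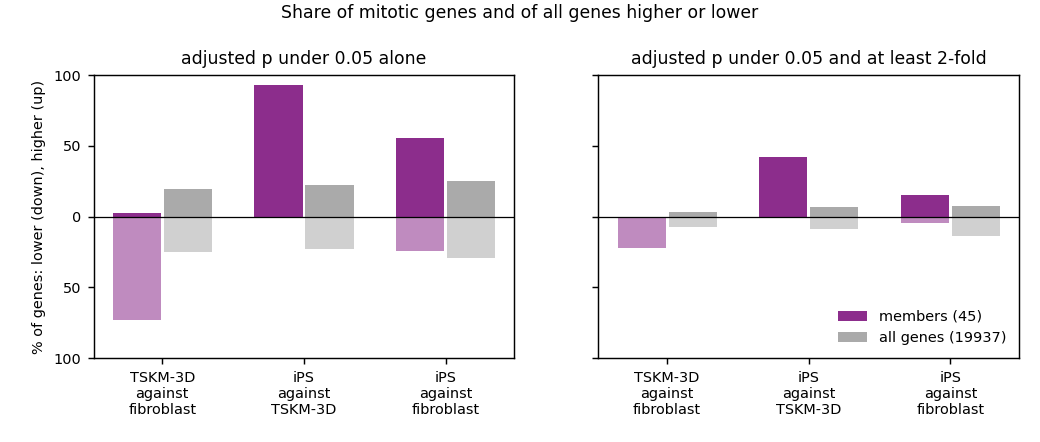
Percent of genes higher (upwards) or lower (downwards) in each of the 3 comparisons, for the 45 mitotic genes (purple) and all 19937 genes (grey), at an adjusted p under 0.05 alone on the left and with at least 2-fold on the right. The members' bars point down in TSKM-3D against fibroblast and up in iPS against TSKM-3D, past the grey bars in both panels.

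Only Cdca3, Ube2c and Kif20a were called both lower in TSKM-3D than in fibroblasts and higher in iPS cells than in TSKM-3D (6.67% of members, against 0.983% of all genes). At the adjusted p alone 32 members stood below both other groups (71.1%, against 8.56%). Both sides of this count use the same TSKM-3D arrays.

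The members' median SD was 0.17 in TSKM-3D, 0.05 in fibroblasts and 0.08 in iPS cells, beside 0.13, 0.07 and 0.11 for the median gene. TSKM-3D replicate 2 was the lowest of its group for 34 of the 45 members, whereas over all genes it was the lowest for 31.7%. Without it 11 members were called lower in TSKM-3D than in fibroblasts and 17 higher in iPS cells than in TSKM-3D. TSKM-3D replicate 3 was the highest of its group for 30 of the 45 members and for 32.2% of all genes. Without it 12 members were called lower, 22 higher in iPS cells, and 6 below both other groups, in place of 10, 19 and 3.

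The 2 transcription factors of the list, both of which act through MuvB target genes, parted. Foxm1, a forkhead factor that drives G2 genes, read 9.19, 9.19 and 9.20 on the fibroblast arrays, 7.27, 7.43 and 7.50 on the TSKM-3D arrays, and 8.09, 8.27 and 8.16 on the iPS arrays. The groups did not overlap, and TSKM-3D was lowest. Foxm1 fell by 1.80 ± 0.08 in TSKM-3D against fibroblasts, 3.47-fold and the largest fall among the members (adjusted p = 1.67e-08). In iPS cells it was 0.77 ± 0.08 above TSKM-3D (adjusted p = 9.49e-06) and still 2.03-fold below fibroblasts (-1.02 ± 0.08; adjusted p = 5.91e-07).

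Mybl2, which encodes B-MYB, the partner of MuvB in S phase, read 8.72, 8.89 and 8.82 on the fibroblast arrays, 8.32, 8.76 and 8.42 on the TSKM-3D arrays, and 11.50, 11.79 and 11.74 on the iPS arrays. Fibroblast and TSKM-3D arrays overlapped and the iPS arrays stood far above both. The difference between TSKM-3D and fibroblasts was -0.31 ± 0.12 (95% interval -0.57 to -0.04; adjusted p = 0.059). Against TSKM-3D the iPS cells were 9.05-fold higher (3.18 ± 0.12; adjusted p = 1.5e-09), and against fibroblasts 7.32-fold (2.87 ± 0.12). Both are the largest rises among the members.

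The genes that start mitosis fell together in TSKM-3D: 4 of 5 were called lower and all 5 passed the adjusted p. Over all genes 7.58% were called lower there and 25.3% were lower at the adjusted p alone. The same shares apply to the role groups below, where 1 call among 6 or 7 genes cannot be told from 7.58%. Plk1, the polo-like kinase that matures centrosomes and helps activate CDK1, read 10.83, 10.82 and 10.80 on the fibroblast arrays, 9.46, 9.12 and 9.63 on the TSKM-3D arrays, and 10.24, 10.41 and 10.31 on the iPS arrays. It fell by 1.41 ± 0.12, which is 2.66-fold (adjusted p = 1.25e-06). The cyclin gene Ccnb2 fell by 1.35 ± 0.08 (adjusted p = 5.87e-08), and Cdk1, the kinase that cyclin B activates, fell by 1.23 ± 0.07 (adjusted p = 9.8e-08). Cdk1 read 10.95, 11.01 and 11.08 on the fibroblast arrays, 9.84, 9.77 and 9.74 on the TSKM-3D arrays, and 10.71, 10.72 and 10.63 on the iPS arrays. For these 3 genes no TSKM-3D array reached a fibroblast or an iPS array, and the iPS arrays in turn stayed below every fibroblast array. The difference of iPS cells from fibroblasts was -0.50 ± 0.12 for Plk1, -0.58 ± 0.08 for Ccnb2 and -0.32 ± 0.07 for Cdk1 (adjusted p = 0.00289, 3.27e-05 and 0.00247), all less than 2-fold.

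The other members of this group ended above the fibroblasts. Aurka, the kinase of spindle poles, fell by 0.49 ± 0.07 in TSKM-3D, which is 1.41-fold, and was 2.42-fold higher in iPS cells than in TSKM-3D (1.28 ± 0.07; adjusted p = 4.63e-08). Cdca3, which promotes the destruction of the CDK1 inhibitor WEE1, read 9.12, 9.21 and 9.15 on the fibroblast arrays, 8.05, 8.19 and 8.18 on the TSKM-3D arrays, and 9.85, 9.62 and 9.50 on the iPS arrays. It was the called fall nearest the 2-fold line, at -1.02 ± 0.10 and 2.03-fold (adjusted p = 3.65e-06). That call was lost without fibroblast replicate 2, without TSKM-3D replicate 1 and after quantile normalization. In iPS cells Cdca3 was 2.86-fold above TSKM-3D and 0.50 ± 0.10 above fibroblasts (adjusted p = 0.000778).

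Of the 6 genes of the spindle assembly checkpoint and the anaphase-promoting complex, which together delay and then trigger chromosome separation, 1 was called lower in TSKM-3D and 5 passed the adjusted p. Ube2c, the ubiquitin-conjugating enzyme of the anaphase-promoting complex, read 9.83, 9.86 and 9.98 on the fibroblast arrays, 8.23, 8.36 and 8.35 on the TSKM-3D arrays, and 9.64, 9.38 and 9.35 on the iPS arrays. It fell 2.98-fold in TSKM-3D (-1.57 ± 0.09; adjusted p = 9.44e-08), the largest fall after Foxm1, and was 2.20-fold higher in iPS cells than in TSKM-3D (1.14 ± 0.09; adjusted p = 8.46e-07). Cdc20, the activator of the same complex, differed by -0.48 ± 0.07 in TSKM-3D and by 0.95 ± 0.07 between iPS cells and TSKM-3D.

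The checkpoint kinases and their partners differed among themselves. Bub1, a kinase that marks centromeres, fell by 0.89 ± 0.10 (adjusted p = 1.44e-05), Mad2l1, the inhibitor of CDC20, by 0.75 ± 0.09, and Ttk, the kinase that starts the checkpoint, by 0.72 ± 0.14. Bub1b, which encodes BUBR1 of the same inhibitory complex, read 9.09, 8.94 and 8.99 on the fibroblast arrays, 9.25, 8.93 and 9.25 on the TSKM-3D arrays, and 10.27, 10.18 and 10.17 on the iPS arrays. Fibroblast and TSKM-3D arrays overlapped (0.13 ± 0.10, 95% interval -0.08 to 0.35; adjusted p = 0.295), whereas the iPS arrays lay above all others. In iPS cells Ttk was 2.87-fold, Bub1 2.19-fold and Bub1b 2.08-fold above TSKM-3D. Bub1b was also 2.29-fold above fibroblasts (1.19 ± 0.10; adjusted p = 5.92e-07), and Mad2l1 differed from fibroblasts by 0.02 ± 0.09 (95% interval -0.17 to 0.21).

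**Figure D3:**
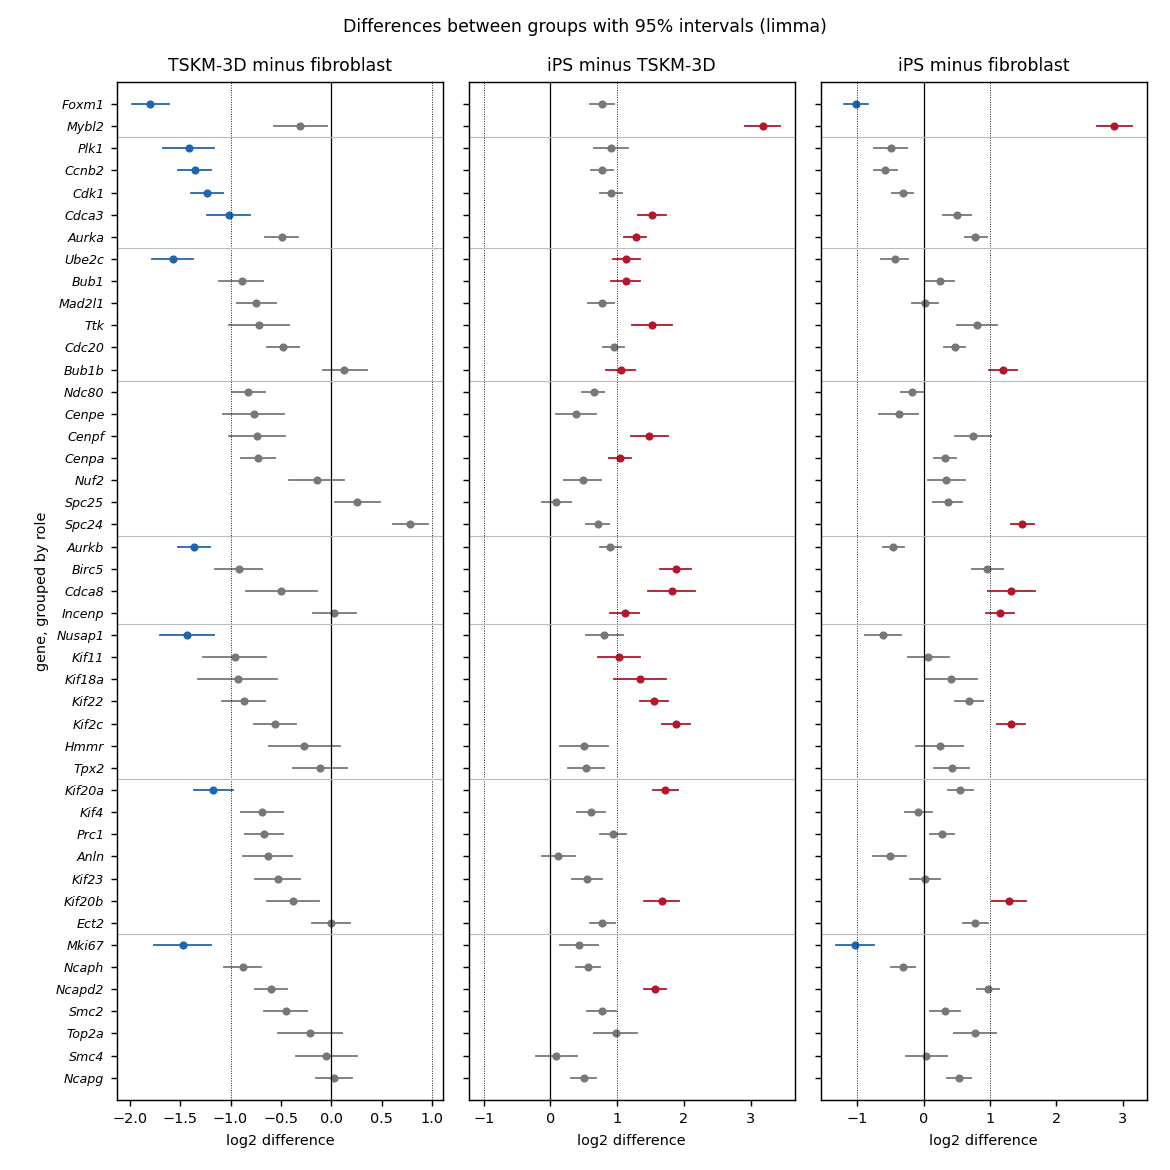
Log2 difference (horizontal) of each of the 45 mitotic genes (vertical, grouped by role) in the 3 comparisons, with 95% intervals from limma; dotted lines mark 2-fold, blue points are genes called lower and red points genes called higher. In TSKM-3D against fibroblast the 10 blue points lie left of the dotted line, Foxm1 farthest, and Spc24 lies farthest to the right at 0.78, whereas in iPS against TSKM-3D no point is left of 0.

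At the centromere and kinetochore, where microtubules attach, 0 of 7 members were called in TSKM-3D against fibroblasts. At the adjusted p alone 4 were lower and 1 was higher. The difference was -0.77 ± 0.14 for Cenpe, a plus-end motor, -0.74 ± 0.13 for Cenpf, a large outer kinetochore protein, and -0.73 ± 0.08 for Cenpa, the centromere's own histone H3. In iPS cells Cenpf was 2.80-fold and Cenpa 2.06-fold above TSKM-3D, both called.

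The NDC80 complex, which grips the microtubule, is built from 1 copy each of NDC80, NUF2, SPC24 and SPC25, and the RNAs of its subunits did not move together. Ndc80 read 7.91, 7.95 and 7.94 on the fibroblast arrays, 7.01, 7.19 and 7.12 on the TSKM-3D arrays, and 7.82, 7.74 and 7.71 on the iPS arrays. Its TSKM-3D arrays lay below all others, and it fell by 0.83 ± 0.08 (adjusted p = 3.13e-06). Spc24 read 7.55, 7.58 and 7.57 on the fibroblast arrays, 8.46, 8.23 and 8.36 on the TSKM-3D arrays, and 9.01, 9.06 and 9.11 on the iPS arrays. It was the only member higher in TSKM-3D than in fibroblasts at the adjusted p, by 0.78 ± 0.08 or 1.72-fold (adjusted p = 7.18e-06), with no overlap between any of the groups. In iPS cells Spc24 was a further 0.71 ± 0.08 higher and stood 2.80-fold above fibroblasts (1.49 ± 0.08; adjusted p = 1.31e-08).

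The other subunits of this complex lay between. Nuf2 read 8.80, 8.70 and 8.78 on the fibroblast arrays, 8.78, 8.28 and 8.80 on the TSKM-3D arrays, and 9.18, 9.07 and 9.06 on the iPS arrays. Fibroblast and TSKM-3D arrays overlapped, and only TSKM-3D replicate 2 was low (-0.14 ± 0.12, 95% interval -0.42 to 0.13; adjusted p = 0.389). Spc25 differed by 0.26 ± 0.10 between TSKM-3D and fibroblasts (adjusted p = 0.0524) and by 0.09 ± 0.10 between iPS cells and TSKM-3D (adjusted p = 0.506). The intervals of Ndc80 (-0.99 to -0.66) and Spc24 (0.61 to 0.96) do not meet, although the difference between the genes was not itself tested.

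The chromosomal passenger complex, which corrects faulty attachments and then steers cytokinesis, had 3 of 4 members lower in TSKM-3D at the adjusted p and 0 higher. Its kinase Aurkb read 10.83, 10.79 and 10.90 on the fibroblast arrays, 9.48, 9.54 and 9.41 on the TSKM-3D arrays, and 10.39, 10.40 and 10.35 on the iPS arrays. It fell 2.57-fold in TSKM-3D (-1.36 ± 0.07; adjusted p = 4.08e-08), and at -0.46 ± 0.07 the iPS cells remained below fibroblasts (adjusted p = 0.000158). Incenp, the scaffold that binds and activates the kinase, read 8.42, 8.30 and 8.27 on the fibroblast arrays, 8.30, 8.22 and 8.57 on the TSKM-3D arrays, and 9.43, 9.52 and 9.49 on the iPS arrays. It differed by 0.03 ± 0.10 between TSKM-3D and fibroblasts (95% interval -0.18 to 0.25; adjusted p = 0.806) and was 2.22-fold higher in iPS cells than in fibroblasts (adjusted p = 7.17e-07), a call lost with array medians set equal.

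The targeting subunits of this complex are survivin and borealin. Birc5, which encodes survivin, read 8.41, 8.29 and 8.35 on the fibroblast arrays, 7.22, 7.60 and 7.47 on the TSKM-3D arrays, and 9.46, 9.24 and 9.23 on the iPS arrays. It fell by 0.92 ± 0.11 in TSKM-3D, 1.89-fold and under the line (adjusted p = 2.02e-05), and was 3.68-fold higher in iPS cells than in TSKM-3D (adjusted p = 3.56e-08). Cdca8, which encodes borealin, fell by 0.50 ± 0.16 with a wide spread among the TSKM-3D arrays (7.71, 7.12 and 7.94; adjusted p = 0.0264). In iPS cells Cdca8 was 3.52-fold above TSKM-3D and 2.50-fold above fibroblasts, both called.

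**Figure D4:**
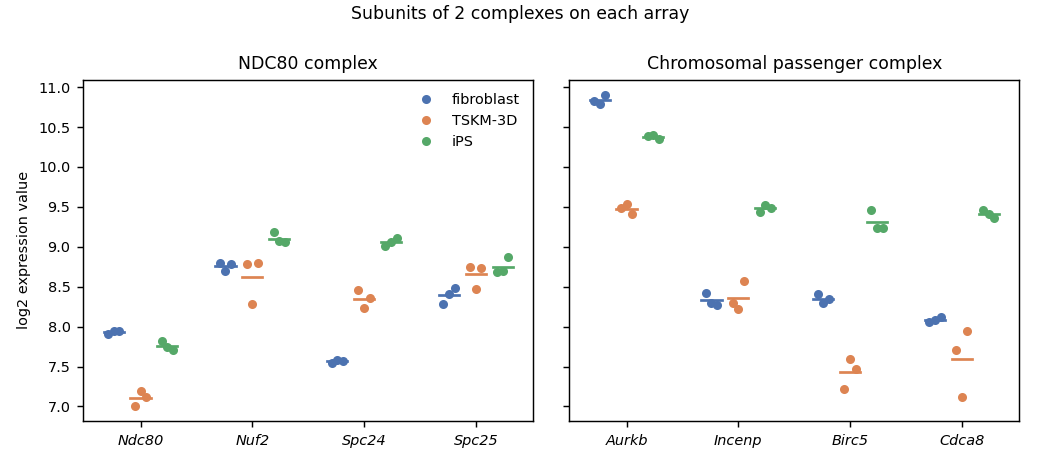
Log2 values (vertical) of the 4 subunits of the NDC80 complex (left) and the 4 members of the chromosomal passenger complex (right) on each array, with a line at each group's mean; levels are to be read within a gene, since rows of different genes are not on one scale. Ndc80, Aurkb and Birc5 drop in TSKM-3D, Incenp and Nuf2 overlap with the fibroblasts, and Spc24 steps up from group to group.

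Among 7 spindle motors and microtubule-associated proteins 5 were lower in TSKM-3D at the adjusted p, and 1 of them was called. Nusap1, which bundles microtubules around chromosomes, read 9.09, 9.26 and 9.20 on the fibroblast arrays, 7.83, 7.51 and 7.92 on the TSKM-3D arrays, and 8.80, 8.45 and 8.45 on the iPS arrays. It fell 2.70-fold (-1.43 ± 0.12; adjusted p = 2.1e-06) and remained -0.62 ± 0.12 from fibroblasts in iPS cells (adjusted p = 0.00115). Kif11, the motor that pushes spindle poles apart, read 9.42, 9.41 and 9.50 on the fibroblast arrays, 8.73, 8.08 and 8.64 on the TSKM-3D arrays, and 9.49, 9.48 and 9.57 on the iPS arrays. Its difference of -0.96 ± 0.14 lay just under 2-fold (adjusted p = 0.000142), and TSKM-3D replicate 2 was the lowest.

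In iPS cells 4 of these 7 were called above TSKM-3D. Kif2c, a motor that takes microtubule ends apart, read 9.12, 9.07 and 9.15 on the fibroblast arrays, 8.61, 8.38 and 8.66 on the TSKM-3D arrays, and 10.58, 10.40 and 10.33 on the iPS arrays. It fell by 0.56 ± 0.10 in TSKM-3D and was then 3.69-fold higher in iPS cells (adjusted p = 1.53e-08), which left it 2.50-fold above fibroblasts (adjusted p = 1.98e-07). Kif22, a motor that pushes chromosome arms to the middle of the spindle, was 2.92-fold and Kif18a, which dampens chromosome swings, 2.53-fold above TSKM-3D. Kif11 was 2.04-fold above TSKM-3D, a call lost without TSKM-3D replicate 2 and with array medians set equal.

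Tpx2 and Hmmr, partners of Aurora A at spindle microtubules, did not pass the test in TSKM-3D. Tpx2 differed by -0.11 ± 0.12 (adjusted p = 0.496), with a sign that turned after quantile normalization. Hmmr read 8.44, 8.44 and 8.44 on the fibroblast arrays, 8.40, 7.68 and 8.44 on the TSKM-3D arrays, and 8.72, 8.69 and 8.64 on the iPS arrays, so that its difference of -0.27 ± 0.16 came from TSKM-3D replicate 2. The deposited table gives Hmmr the same value on all 3 fibroblast arrays, as it does for Kif20a.

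Of 7 genes of the central spindle and cytokinesis, 6 were lower in TSKM-3D at the adjusted p and 1 was called, against 25.3% and 7.58% of all genes. Kif20a, the motor that carries the passenger complex to the midzone, read 10.19, 10.19 and 10.19 on the fibroblast arrays, 8.99, 8.98 and 9.10 on the TSKM-3D arrays, and 10.91, 10.68 and 10.65 on the iPS arrays. It fell 2.25-fold (-1.17 ± 0.09; adjusted p = 5.04e-07) and was 3.30-fold higher in iPS cells than in TSKM-3D (adjusted p = 1.28e-08). Kif20b, a related motor of late cytokinesis, fell by only 0.38 ± 0.12 (adjusted p = 0.0215) and was 3.18-fold above TSKM-3D and 2.45-fold above fibroblasts in iPS cells. Both motors were called in iPS cells against TSKM-3D, and they were the only 2 of the group to be.

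Anln and Ect2, which act at the same place, had unlike values. Ect2, the exchange factor that switches on RHOA for the contractile ring, read 9.27, 9.40 and 9.48 on the fibroblast arrays, 9.42, 9.29 and 9.45 on the TSKM-3D arrays, and 10.15, 10.26 and 10.09 on the iPS arrays. Its difference in TSKM-3D was 0.00 ± 0.09 (95% interval -0.19 to 0.19), and it was 1.72-fold above fibroblasts in iPS cells (adjusted p = 7.6e-06). Anln, the anillin scaffold of the same ring, read 9.97, 10.11 and 10.15 on the fibroblast arrays, 9.55, 9.17 and 9.60 on the TSKM-3D arrays, and 9.61, 9.57 and 9.50 on the iPS arrays. It fell by 0.63 ± 0.11 in TSKM-3D (adjusted p = 0.000611) and its difference between iPS cells and TSKM-3D did not pass the test (0.12 ± 0.11, 95% interval -0.13 to 0.37; adjusted p = 0.437). Prc1, Kif4 and Kif23, which bundle the midzone, differed by -0.67, -0.69 and -0.53 in TSKM-3D, and by 0.94, 0.61 and 0.55 between iPS cells and TSKM-3D, all past the adjusted p and under 2-fold.

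The chromosome group of 7 held the member used most widely to mark dividing cells. Mki67, whose product Ki-67 coats mitotic chromosomes, read 10.43, 10.35 and 10.38 on the fibroblast arrays, 8.91, 8.59 and 9.23 on the TSKM-3D arrays, and 9.31, 9.36 and 9.36 on the iPS arrays. It fell 2.78-fold in TSKM-3D (-1.47 ± 0.13; adjusted p = 2.42e-06) and in iPS cells stood only 0.43 ± 0.13 above TSKM-3D (adjusted p = 0.0166). With a difference of -1.04 ± 0.13 from fibroblasts (2.06-fold; adjusted p = 2.54e-05), Mki67 and Foxm1 were the 2 members called lower in iPS cells than in fibroblasts. Both calls were lost after quantile normalization, which left 0 called lower, and Foxm1 was also lost without iPS replicate 1.

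Condensin I, which compacts chromosome arms, had subunits that fell and subunits that did not pass the test. Ncaph, its kleisin subunit, fell by 0.88 ± 0.08 (adjusted p = 3.33e-06), the HEAT-repeat subunit Ncapd2 by 0.60 ± 0.07 (adjusted p = 3.29e-05) and the ATPase Smc2 by 0.45 ± 0.10 (adjusted p = 0.00261). Smc4, the other ATPase, differed by -0.05 ± 0.14 (95% interval -0.35 to 0.26) and Ncapg, the other HEAT-repeat subunit, by 0.03 ± 0.08 (95% interval -0.15 to 0.21). Ncapd2 read 9.68, 9.61 and 9.67 on the fibroblast arrays, 9.03, 9.01 and 9.11 on the TSKM-3D arrays, and 10.56, 10.70 and 10.61 on the iPS arrays. Its groups did not overlap, and its rise of 2.97-fold from TSKM-3D to iPS cells was the only called one in this group (adjusted p = 7.68e-09). Smc4 differed by 0.09 ± 0.14 there (adjusted p = 0.663).

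Top2a, the topoisomerase that untangles sister chromatids, averaged 9.99 ± 0.07 (SD, n = 3) in fibroblasts, 9.78 ± 0.34 in TSKM-3D and 10.76 ± 0.13 in iPS cells, with TSKM-3D replicate 2 at 9.38. Fibroblast and TSKM-3D arrays overlapped (-0.21 ± 0.15; adjusted p = 0.274), and the iPS arrays were 1.97-fold above TSKM-3D (adjusted p = 0.000131). Top2a is also named by a second, dim array row with group means of 3.59, 2.95 and 3.59, which was not used.

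The 12 members not lower in TSKM-3D at the adjusted p came from every role group except the mitotic entry kinases: Mybl2, Bub1b, Nuf2, Spc24, Spc25, Incenp, Tpx2, Hmmr, Ect2, Smc4, Ncapg and Top2a. Several of them, among them Nuf2, Hmmr, Smc4 and Top2a, were at or near their fibroblast level on TSKM-3D replicates 1 and 3 and low on replicate 2.

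Other genes of the same machinery were read in the same fit, from lists drawn up by function with earlier results of these data known. In that fit 7.58% of all genes were called lower in TSKM-3D than in fibroblasts and 6.48% higher in iPS cells than in TSKM-3D. At the adjusted p alone 25.3% of all genes were lower and 19.2% higher in TSKM-3D than in fibroblasts. Of 20 other regulators of mitotic entry and exit, 7 were called lower in TSKM-3D (35%) and 0 higher (15 and 0 at the adjusted p alone), with a median difference of -0.56. They included Cks2, a CDK1 cofactor (-1.55 ± 0.09), and Ccna2, cyclin A2 (-1.35 ± 0.08), along with Mastl, the kinase that shuts off the phosphatase opposing CDK1. In iPS cells against TSKM-3D 9 of the 20 were called higher and 0 lower, led by Ccnf (2.45 ± 0.13), Wee1 (2.11 ± 0.13) and Cdc25a (1.98 ± 0.08).

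Of 36 other checkpoint and kinetochore genes, 6 were called lower in TSKM-3D (16.7%) and 0 higher (22 and 5 at the adjusted p alone), with a median of -0.46. The largest falls were those of Sgo2a, a protector of centromeric cohesion (-1.93 ± 0.14), and Cenpn, which reads the centromeric nucleosome (-1.88 ± 0.07). In iPS cells 14 were called above TSKM-3D and 0 below. Of 37 other spindle and cytokinesis genes, 4 were called lower in TSKM-3D (10.8%) and 0 higher (21 and 6 at the adjusted p alone; median -0.39), with Haus7 of the augmin complex at -1.97 ± 0.10. In iPS cells 10 were called above TSKM-3D and 0 below, led by Cep55, which recruits the abscission machinery (2.23 ± 0.10).

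Cohesin holds sister chromatids together until the anaphase-promoting complex releases them. Of 20 genes of condensin II and cohesin 1 was called lower (5%, below the 7.58% of all genes), the cohesin acetyltransferase Esco2 (-1.42 ± 0.11). The median was 0.07. At the adjusted p alone 5 of the 20 were lower and 7 higher, where 25.3% and 19.2% of all genes were. In iPS cells against TSKM-3D 4 of them were called higher (20%, all genes 6.48%) and 2 lower (10%, all genes 8.57%). Cdca5, which encodes sororin, was at 2.67 ± 0.09. Top2b, a topoisomerase placed on this list that non-dividing cells also express, was at -3.06 ± 0.17. Of 17 genes of the anaphase-promoting complex 2 were called lower in TSKM-3D (11.8%, beside 7.58% of all genes), with 12 lower and 1 higher at the adjusted p alone and a median of -0.33. These were Fbxo5, which encodes the inhibitor EMI1 (-1.18 ± 0.12), and Cdc27 (-1.01 ± 0.13). In iPS cells against TSKM-3D 2 of the 17 were called higher (11.8%, all genes 6.48%) and 0 lower (all genes 8.57%), with a median of 0.31. These were Fbxo5 (2.79 ± 0.12) and Fzr1 (1.19 ± 0.07). At the adjusted p alone 9 of the 17 were higher and 4 lower, where 22.3% and 23.2% of all genes were.

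The regulators of mitotic genes named in the background were read as a list of 12 genes of MuvB, DREAM and B-MYB complexes. Their binding to the members' promoters was not measured. In TSKM-3D 1 was called lower (8.33%, near the 7.58% of all genes). It was Lin54, the MuvB subunit that contacts the cell cycle homology region (-1.02 ± 0.08, limma adjusted p = 9.95e-07), and the median was -0.29. At the adjusted p alone 7 of the 12 were lower and 1 higher, where 25.3% and 19.2% of all genes were. In iPS cells against TSKM-3D 1 was called higher and 1 lower (8.33% each), near the 6.48% and 8.57% of all genes. The higher was Lin54 (1.33 ± 0.08), and the lower was Rbl2, which encodes the DREAM pocket protein p130 (-1.43 ± 0.16, limma adjusted p = 1.51e-05). Against fibroblasts 0 were called higher in iPS cells and 1 lower (8.33%, all genes 13.8%), again Rbl2 (-1.81 ± 0.16).

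DNA replication genes, which belong to the S phase of the same cycle, served as a comparison. Of 48 genes 7 were called lower (14.6%, all genes 7.58%) and 1 higher (2.08%, all genes 3.25%) in TSKM-3D. The median difference was -0.30 beside -0.69 for the mitotic members. At the adjusted p alone 30 of the 48 were lower and 6 higher, beside 33 and 1 of the 45 mitotic members. Over all genes 25.3% were lower and 19.2% higher by that rule. In iPS cells against TSKM-3D 33 were called higher (68.8%, all genes 6.48%) and 2 lower (4.17%, all genes 8.57%), with a median of 1.22 beside 0.91. There 44 were higher and 3 lower at the adjusted p alone, beside 42 and 0 of the mitotic members and 22.3% and 23.2% of all genes. Against fibroblasts 24 were called higher (50%, all genes 7.63%) and 1 lower (2.08%, all genes 13.8%) in iPS cells, with a median of 0.95 beside 0.34. The difference between the 2 lists was not tested.

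Markers of other cells moved with the groups too. Of 16 macrophage markers 5 were called lower in TSKM-3D than in fibroblasts (31.2%, all genes 7.58%) and 0 higher (all genes 3.25%). In iPS cells 5 were called lower than in fibroblasts (31.2%, all genes 13.8%) and 2 higher (12.5%, all genes 7.63%). Their summed linear levels were 2125 to 2252 on fibroblast arrays, 809 to 898 on TSKM-3D arrays and 2808 to 3189 on iPS arrays. Lyz2 had group means of 9.18, 5.17 and 6.04, and the iPS sum rests on Laptm5 (10.62) and Cd68 (9.59). Of the 15 fibroblast markers 8 were called lower (53.3%) and 1 higher (6.67%) in TSKM-3D than in fibroblasts. In iPS cells 13 of the 15 were called lower than in fibroblasts (86.7%, all genes 13.8%) and 0 higher (all genes 7.63%). Col1a1 had a mean of 12.20 in fibroblasts and 11.47 in iPS cells. No marker can be read as 0 on an array, and the lowest fibroblast marker mean in iPS cells was that of Lum, 4.48. The part of these cells, or of remaining feeders, in the mitotic values was not tested.

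Of the 45 members 38 had an entry in the RefSeq promoter table, with 250 bases before and 50 after each start. The cell cycle homology region, searched as TTTGAA or TTCGAA on both strands, was in the promoters of 30 of the 38 members (78.9%), against 19% of the 15613 array genes with an entry. The CCAAT box, as CCAAT on both strands, was in 27 (71.1%), against 41.7%, and both were in 26 (68.4%), against 7.69%. Matches of the 2 motifs were counted separately, also where they share a base. Of 41 DNA replication genes with an entry 7 held the homology region (17.1%) and 25 the CCAAT box (61%). The other lists of the same machinery lay between for the homology region. It was in 53.3% of condensin II and cohesin genes, 51.6% of other spindle and cytokinesis genes and 47.1% of other checkpoint and kinetochore genes. The MuvB list held it in 44.4%, the other mitotic entry and exit regulators in 33.3% and the anaphase-promoting complex in 25%. The CCAAT box ran from 37.5% in the anaphase-promoting complex list to 73.3% in those regulators. A match of letters is a description and does not show a bound site.

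Position narrowed the picture. Between 50 bases before and 40 after the start, limits chosen after the positions were seen, 26 of the 38 members held the homology region (68.4%), against 4.81% of array genes. In the other lists of the same machinery the share ran from 6.25% (anaphase-promoting complex) to 41.9% (other spindle and cytokinesis genes). Members that fell and members that did not both held the region. It was found in 6 of 7 members called lower in TSKM-3D, in 18 of 23 lower at the adjusted p but under 2-fold, and in 6 of 8 not lower. The 8 members without it were Mybl2, Mad2l1, Cenpe, Nuf2, Birc5, Kif18a, Nusap1 and Ncaph, of which 7 held neither element and Cenpe held a CCAAT box. Nusap1 is thus among the members with the largest falls and has no match in this window, and Bub1b and Spc25 have matches and did not pass the test in TSKM-3D.

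**Figure D5:**
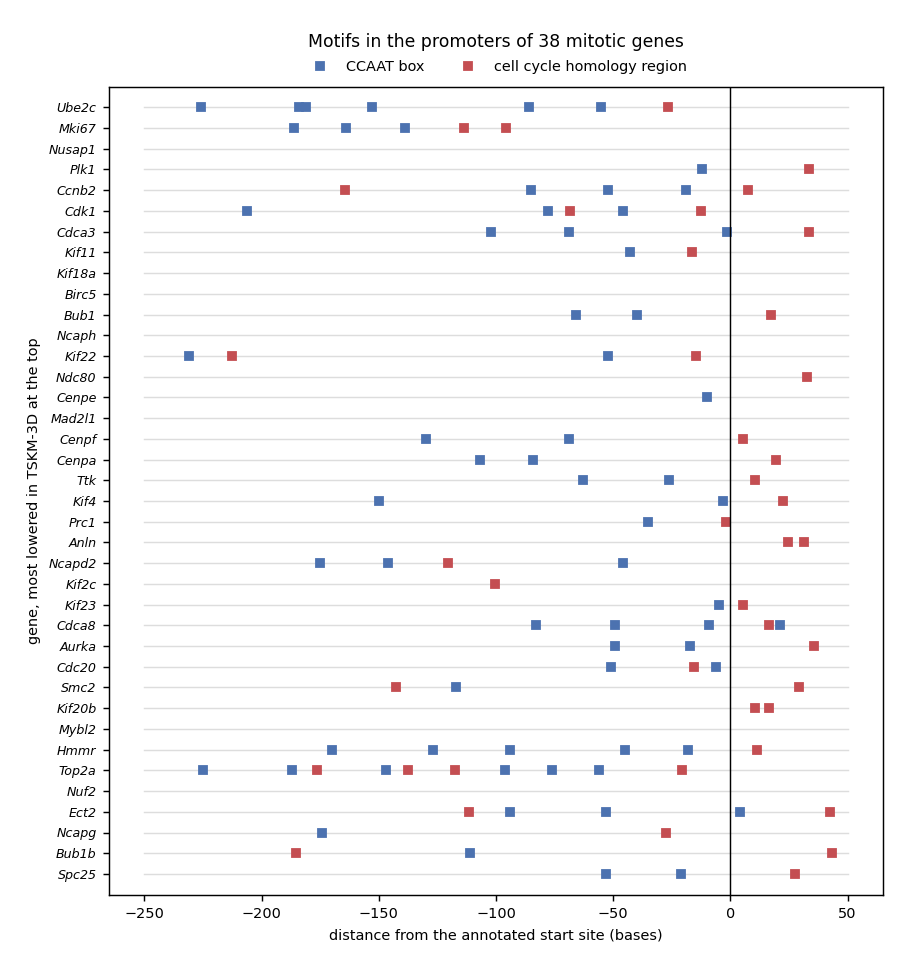
Position of the CCAAT box (blue) and the cell cycle homology region (red) along the promoter (horizontal, in bases from the start site) for the 38 members with a sequence (vertical, ordered by their difference between TSKM-3D and fibroblasts, largest fall at the top). Red squares gather near the start in most genes from top to bottom, and 7 genes, Nusap1 and Mybl2 among them, show no square.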

How the data were processed

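Per the labels' protocols, Trizol RNA was biotin-labelled with an Affymetrix terminal labelling kit. The authors deposited log2 values for 34760 array rows on 9 arrays; how they were background-corrected and normalized is not given in the sources used here, and the values were used as deposited. Gene symbols came from the array's probe annotation: 21640 rows named 1 gene symbol, 1321 several and 11799 were not listed. For each of 19937 genes the row with the highest mean was kept. One limma 3.58.1 model (R 4.3.3) held all 3 groups, without covariates, with Benjamini-Hochberg adjustment over all genes; the fit was tested on simulated data. The number of arrays limits the precision. Members of each role group were named for the largest rise or fall, for going against the list, or for lying near 2-fold, and of each other list up to 5 called genes per comparison. The members and lists were chosen with earlier results of these data known. Other scalings, thresholds, row choices, left-out arrays, a replicate block and another placement of the third fibroblast array were tried. Deviations from group means correlated between -0.098 and 0.062 in 9 same-numbered pairs of arrays, and between -0.132 and 0.130 in 18 differently numbered pairs. The labels do not say what a replicate number marks, and these correlations cannot exclude that same-numbered arrays shared a culture.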

Additional observations from a re-analysis of the deposited data

How the results depend on the processing

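Each member's difference in each comparison, 135 in all, was recomputed under 17 other settings, which gave 2295 values. Of these 2221 kept their direction and their side of the threshold, 29 dropped below it, 14 passed it and 31 changed sign. In several settings the difference itself could not move. The replicate block, the fit of only the groups compared, the spread prior and the filter on dim rows leave it unchanged. The same holds for the mean of a gene's rows where a member has 1 row, and for leaving out an array outside the comparison. Only the adjusted p could change there, so many of the 2221 were close to fixed in advance. With the adjusted p alone, 1 member was higher and 33 were lower in TSKM-3D than in fibroblasts, 42 were higher in iPS cells than in TSKM-3D, 25 were higher and 11 lower in iPS cells than in fibroblasts, and 32 lay below both other groups. At 1.5-fold these counts were 1 higher and 26 lower, 34 higher, 15 higher, and 22 below both. With the third fibroblast array placed with TSKM-3D, 0 members were called lower in TSKM-3D, 0 lower in iPS cells than in fibroblasts and 0 below both; that placement mixes array groups by construction. Quantile normalization left 0 members lower in iPS cells than in fibroblasts, and the cause was not tested. Leaving out 1 array at a time gave 2 to 6 members below both and 1 to 2 lower in iPS cells than in fibroblasts. With the replicate block the counts were 10 lower in TSKM-3D, 19 higher in iPS cells than in TSKM-3D, and 7 higher and 2 lower in iPS cells than in fibroblasts, with the same genes called, and the block changed no other count. Setting array medians equal moved the median of all genes from 0.05 to -0.12 for iPS cells against fibroblasts, and that of the members from 0.34 to 0.18, whereas quantile normalization gave -0.08 and 0.50; for iPS cells against TSKM-3D these moved from -0.01 to -0.13 and from 0.91 to 0.80.

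The sign changes were all in differences that were called under neither setting. For TSKM-3D against fibroblasts, quantile normalization gave 0.1063 for Smc4 and 0.0353 for Tpx2, equal medians gave -0.0506 for Ect2, -0.0197 for Incenp and -0.0220 for Ncapg, and the other placement gave -0.0208 for Incenp and 0.0071 for Smc4. For iPS cells against TSKM-3D, equal medians gave -0.0285 for Smc4 and -0.0236 for Spc25, and the other placement -0.0573 for Anln. For iPS cells against fibroblasts, quantile normalization gave 0.0890 for Kif4, equal medians gave -0.0997 for Kif11, -0.1521 for Kif23, -0.1495 for Mad2l1 and -0.1284 for Smc4, and the other placement -0.0225 for Kif23. Leaving out 1 array at a time, the differences between TSKM-3D and fibroblasts ranged from -0.2306 to 0.0278 for Nuf2, -0.0697 to 0.1068 for Incenp, -0.2154 to 0.0314 for Tpx2, -0.0526 to 0.0517 for Ect2, -0.1432 to 0.1357 for Smc4 and -0.0259 to 0.0923 for Ncapg. Those between iPS cells and TSKM-3D ranged from -0.0160 to 0.2004 for Anln and -0.0944 to 0.1845 for Smc4. Those between iPS cells and fibroblasts ranged from -0.0298 to 0.0533 for Mad2l1, -0.0247 to 0.0656 for Kif23 and -0.0208 to 0.1246 for Smc4. The cause of these changes was not tested.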
